A study of Mus musculus with 11 samples.

Results

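The genes described here encode the antigen receptors of lymphocytes and the surface proteins numbered as CD antigens, which mark leukocytes and some other cells. They were chosen by symbol alone: immunoglobulin and T cell receptor genes, mouse symbols made of Cd and a number, and Ms4a1 (CD20), Ptprc (CD45) and Siglecg, leaving out Ighmbp2, Cd74 and Cd36. The rule found 68 genes among the 4474 symbols of both tissue tables. Of these, 42 were among the 2500 genes of the brown fat table and 44 among the 2500 of the liver table, and 18 were in both. The remaining receptor and CD genes were not analysed here. In brown fat the genes fell into 11 of B and plasma cells, 15 of T and NK cells, 8 of myeloid cells, 6 shared by most leukocytes and 2 of other cells. In liver the same classes held 26, 5, 5, 3 and 5 genes.

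B cells recognise antigen through a membrane immunoglobulin that signals through the partner chains CD79A and CD79B, and plasma cells secrete the same molecule as antibody. T cells use a receptor of alpha and beta chains bound to CD3 and zeta chains, with CD4 or CD8 as coreceptor. Each lymphocyte uses few of the many V segments, together with a constant region, so a given V segment is used by only a small share of cells. Liver holds resident macrophages, NK cells and T cells, and brown fat holds macrophages and fewer lymphocytes. In RNA from whole tissue, fewer cells of a type and less RNA per cell cannot be told apart.

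The samples were brown adipose tissue (BAT), a heat-producing fat, and liver, measured by RNA sequencing. All mice carried Adcyap1r1 flox/flox, written as Acypap1r1 floxed/floxed in the sample labels, the gene of the PACAP receptor PAC1 flanked by sites that Cre recombinase cuts. Control mice had received AAV-GFP (an adeno-associated virus with a fluorescent protein) and Cre mice AAV-Cre in the preBötC, the preBötzinger complex of the brainstem, and all underwent a procedure abbreviated as SEFL. Control BAT had 2 libraries (1 and 2), Cre BAT 3 (4, 5 and 6), control liver 3 (7, 8 and 9) and Cre liver 3 (10, 11 and 12). Age, sex, the promoter driving Cre and whether each library was a separate animal are not given in the sources used here. The p-values below thus measure the spread between these libraries, and which libraries of the 2 tissues share an animal is likewise not stated.

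Every value is a row z-score, the position of a library for a gene in units of that gene's SD over 6 libraries of the tissue. It carries no level and no fold change, sequencing depth is unknown, and its maximum is 2.24. In BAT 1 further library entered the scaling and is not analysed here. When a single library is far above the others, the others are drawn together just below 0. Over all 2500 genes, control 1 was the highest of the 5 BAT libraries for 70.7% and control 8 the highest of the 6 liver libraries for 56.4%. These libraries stood apart over the whole tables, so the class means and counts of each comparison are also given without them. The tissue labels were checked with markers: the BAT table held only Lep and Cfd of 12 adipocyte genes, without the brown fat gene Ucp1, while the liver table held 9 of the 12, Ucp1 included. Of 18 hepatocyte genes 7 were in the liver table and 13 in the BAT table, so each table held more markers of the other tissue than of its own. Neither set can check a tissue, since genes with little spread between libraries need not be listed.

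In BAT the receptor and CD genes were high in control 1 and mostly below the gene's mean in control 2 and the Cre libraries. Control 1 was the highest of the 5 libraries for 40 of the 42 genes (95.2%), and 29 of them reached a z-score of 2 or more there. Over all 2500 genes control 1 was the highest for 70.7%, and 1047 genes reached 2 or more there. Ptprc, the CD45 phosphatase found on nearly all leukocytes, had 2.12 in control 1 and -0.82 in control 2. It had -0.84, -0.29 and -0.19 in Cre 4, 5 and 6. Control 2 thus lay within the Cre range, and the control mean was 0.65 ± 2.08 (SD, n = 2) against a Cre mean of -0.44 ± 0.35 (SD, n = 3). Cd44, Cd48, Cd52 and Cd53, further surface proteins of most leukocytes, had 2.14 to 2.22 in control 1 and no value above -0.10 elsewhere.

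**Figure D1:**
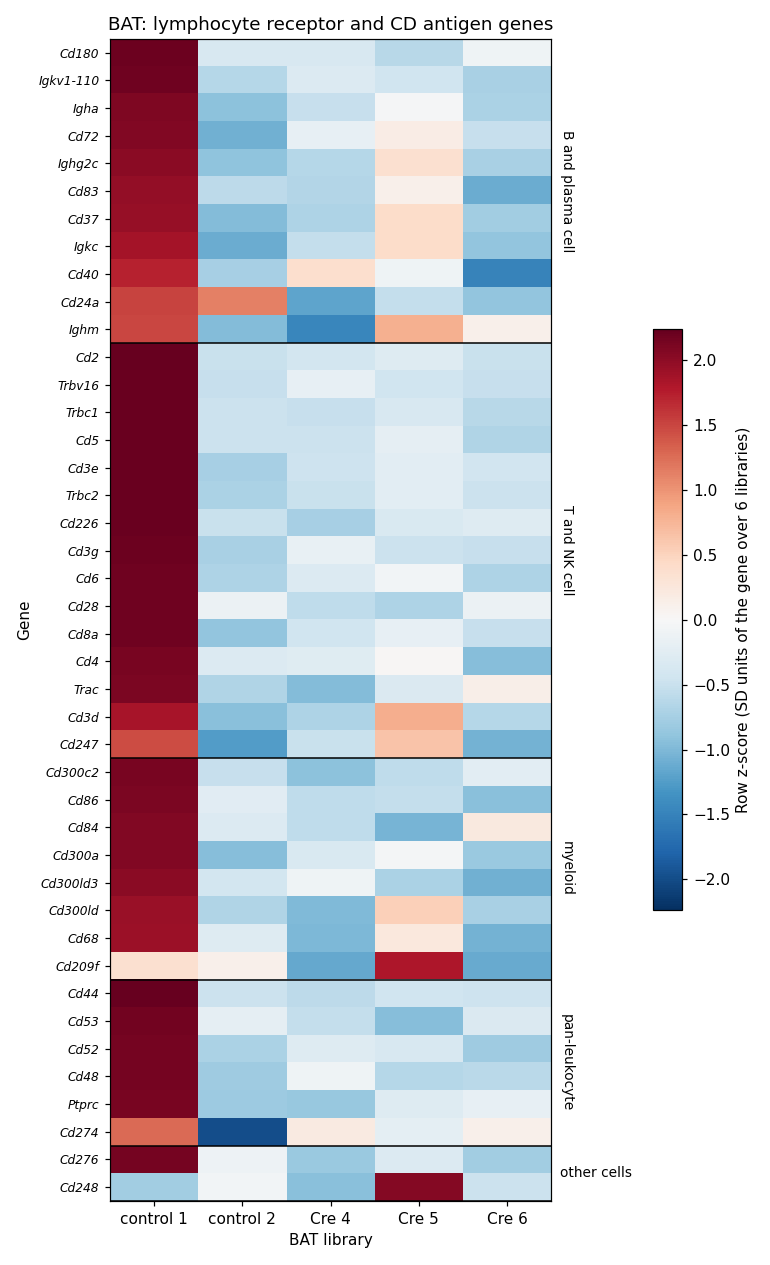
Row z-scores of the 42 genes (rows, by class) in the 5 BAT libraries (columns), with red above and blue below the gene's mean. Control 1 is the darkest red column for 40 of 42 genes, Cd24a is also high in control 2, and Cd209f and Cd248 are highest in Cre 5.

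All 15 T and NK cell genes had their highest BAT value in control 1, and 13 of them had 2 or more. The 4 T cell receptor genes, Trac for the alpha constant region, Trbc1 and Trbc2 for the beta constant regions and the V segment Trbv16, had 2.10 to 2.22 in control 1. They lay between -0.70 and -0.48 in control 2. Cd3e, a signalling chain of the receptor, stood at 2.21 in control 1, at -0.74 in control 2 and at -0.46, -0.24 and -0.43 in Cre 4, 5 and 6. Its partner Cd3g had 2.20 and -0.73 in the controls and -0.17, -0.48 and -0.51 in the Cre libraries. Both CD3 genes were lowest in control 2. The coreceptor gene Cd8a had 2.17 and -0.88 in the controls and -0.44, -0.18 and -0.51 in the Cre libraries. Cd4, the coreceptor of helper T cells, had 2.13 and -0.31 in the controls and -0.28, 0.03 and -0.96 in the Cre libraries. For Cd3e, Cd3g and Cd8a the controls lay on both sides of the Cre libraries, and for Cd4 control 2 lay among them.

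Trbc1 and Trbc2 had close values in each BAT library, and reads of the pair are uncertain, as the sequences of their first coding exon show. The exons are 375 bases long and differ at 1 base, an identity of 99.7%. Each stretch shown is 150 bases of the plus strand of GRCm38 in the GENCODE annotation (chr6:41538402-41538551 and chr6:41546914-41547063), and the capital marks the base that differs.
Trbc1: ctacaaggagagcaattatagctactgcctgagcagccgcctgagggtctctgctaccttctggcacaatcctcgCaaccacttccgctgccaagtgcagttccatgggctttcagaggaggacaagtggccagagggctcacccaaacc
Trbc2: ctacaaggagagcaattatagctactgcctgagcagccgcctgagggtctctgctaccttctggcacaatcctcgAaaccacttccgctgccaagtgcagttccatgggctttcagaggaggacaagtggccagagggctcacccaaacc
Of the 50-base windows of the annotated transcripts, 40.5% for Trbc1 and 44% for Trbc2 occur in the other gene. How reads of the shared windows were assigned is not stated. The agreement of the pair, 2.22 and 2.21 in control 1 and -0.48 and -0.70 in control 2, therefore cannot be taken as independent observations of 2 genes.

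Cd3d and Cd247 departed from the rest of the T cell set in Cre 5. Cd3d, the delta chain of CD3, had 1.85 in control 1 and -0.94 in control 2, with -0.69, 0.82 and -0.64 in Cre 4, 5 and 6. Cd247, the zeta chain that T and NK cells share, had 1.46 and -1.25 in the controls and -0.50, 0.65 and -1.06 in the Cre libraries. Cre 5 was second to control 1 for both, as it was for 10 of the 15 genes in all. Control 2 was the lowest library for both, as for 8 of the 15 with ties included. The 2 genes thus stood apart by the size of their Cre 5 values only. Cd28, the costimulatory receptor of T cells, had 2.18 and -0.13 in the controls and -0.57, -0.70 and -0.14 in the Cre libraries. No other of the 15 had both controls above all Cre libraries, and in Cd28 control 2 was barely above Cre 6.

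The 11 B and plasma cell genes were also highest in control 1, but less uniformly. The 4 immunoglobulin constant regions had 1.50 to 2.10 in control 1, -1.11 to -0.89 in control 2 and -0.03 to 0.80 in Cre 5. Ighm, the heavy chain of IgM, had 1.50 and -0.96 in controls 1 and 2, against -1.47, 0.80 and 0.11 in Cre 4, 5 and 6. Igha, the heavy chain of the mucosal antibody IgA, had 2.10 and -0.91 in the controls and -0.52, -0.03 and -0.71 in the Cre libraries. Igkc, the kappa light chain constant region, had 1.86 and -1.11 in the controls, with 0.42 in Cre 5 and -0.53 and -0.89 in Cre 4 and 6. Cre 5 was the second highest library for 7 of the 11 genes, for 21 of all 42 and for 780 of all 2500 genes of the BAT table. Of the defining B cell genes, Ms4a1, Cd79a, Cd79b, Cd22 and Ighd were not in the BAT table, and neither was any of 19 further genes of B cell identity and signalling, Pax5 among them.

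Cd24a was the exception, with both controls high. This gene encodes a small glycosylated surface protein of immature B cells that epithelial and other cells also carry. It had 1.51 and 1.14 in controls 1 and 2, against -1.17, -0.53 and -0.88 in Cre 4, 5 and 6. Both controls were above all Cre libraries, and the Cre minus control difference was -2.18 with a standard error of 0.28. This was the smallest p among the 42 genes in limma's gene-wise linear model, 0.0043 unadjusted, and it did not pass the threshold after Benjamini-Hochberg adjustment over all 2500 genes (adjusted p = 0.36). Leaving out each library in turn gave differences of -2.37 to -1.996. No other of the 42 genes was at an unadjusted p under 0.05 (2.38%), where 11.4% of all BAT genes were (285 of 2500).

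Among the 8 myeloid genes, 7 were highest in control 1. Cd68, a lysosomal protein of macrophages, had 1.92 and -0.28 in the controls and -0.999, 0.24 and -1.06 in Cre 4, 5 and 6. The 4 genes of the Cd300 family, activating and inhibitory receptors of myeloid cells that lie between 114890041 and 115048409 of chromosome 11 in GRCm38, had 1.93 to 2.12 in control 1 and -0.95 to -0.41 in control 2. Of Cd300ld3, 82.1% of the 50-base windows occur in other genes, all of that family, so its reads are uncertain. Cd86, a costimulatory ligand of antigen-presenting cells, had 2.10 and -0.26 in the controls and -0.56, -0.54 and -0.93 in the Cre libraries. Its controls lay above all Cre libraries (Cre minus control -1.60, limma adjusted p = 0.53). Without control 1 the difference was -0.42.

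Cd209f and Cd248 were highest in Cre 5. Cd209f, a C-type lectin gene of myeloid cells, had 0.37 and 0.11 in the controls and -1.14, 1.81 and -1.13 in Cre 4, 5 and 6. Of its 50-base windows, 29.8% occur in Cd209g. Cd248, endosialin of fibroblasts and pericytes, had -0.79 and -0.06 in the controls and -0.93, 2.06 and -0.48 in the Cre libraries. Both were thus led by Cre 5 alone, with the other Cre libraries below both controls for Cd209f and below control 2 for Cd248. Cd274, the checkpoint ligand PD-L1, had 1.26 in control 1, -1.98 in control 2 and -0.22 to 0.20 in the Cre libraries. Cd248 and Cd274 were the only 2 of the 42 with a higher Cre mean, and limma gave adjusted p-values of 0.71 and 0.82. Cd276, a related surface protein (B7-H3) of many non-immune cells, had 2.14 and -0.11 in the controls and -0.83, -0.31 and -0.78 in the Cre libraries. Its controls did not overlap the Cre libraries, and the difference was -1.66, or -0.53 without control 1 (limma adjusted p = 0.53 with all libraries).

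**Figure D2:**
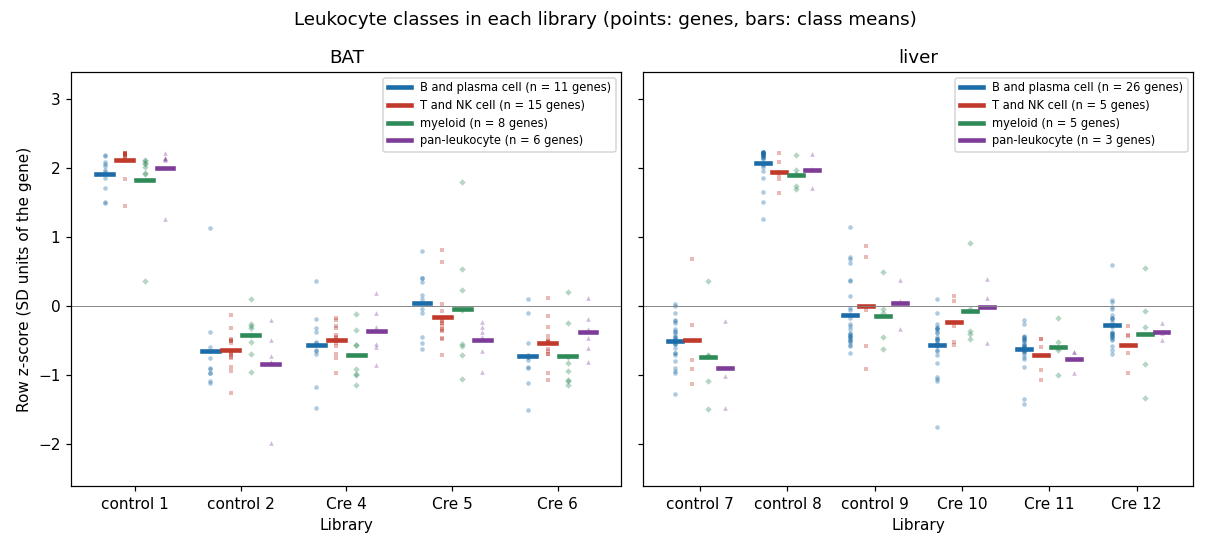
Row z-scores of each leukocyte class in each library of BAT (left) and liver (right); points are genes and bars class means, in SD units of each gene. The 4 class means lie between 1.83 and 2.12 in BAT control 1 and between 1.91 and 2.08 in liver control 8, above every other library of the tissue.

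Between Cre and control, the BAT values gave no call. In limma's gene-wise model 0 of the 42 genes passed an adjusted p of 0.05, as did 0 of all 2500 genes (0%), also with variance moderation. With moderation 226 genes of the table (9.04%) and 1 of the 42, Cd24a, were at an unadjusted p under 0.05. Lower Cre means were found for 40 of the 42 and for 82.5% of all genes, leaving 2 of the 42 and 17.5% of all genes higher. The median difference of the 42 was -1.14 against -1.29 over all genes. Every Cre library lay below every control for 5 of the 42 (11.9%): Cd24a, Cd276, Cd28, Cd53 and Cd86. Over all genes this held for 28.7%, a larger share. Every Cre library lay above every control for 0 of the 42 and for 4.36% of all genes. Without control 1, 13 of the 42 (31%) and 49.4% of all genes had a lower Cre mean, with median differences of 0.25 and 0. Every Cre library was then below control 2 for 5 of the 42 (11.9%) and 31.1% of all genes, and above it for 14 (33.3%) and 18.5%. At an unadjusted p under 0.05 there were then 2 of the 42 and 4.88% of all genes. Without control 2 every Cre library was below control 1 for 40 of the 42 (95.2%) and 77% of all genes, and without Cre 5 the count was 10 (23.8%) against 42% of all genes.

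Control 1 lay above every other BAT library in the class means. The B and plasma cell mean was 1.92 and -0.65 in controls 1 and 2, against -0.56, 0.05 and -0.71 in Cre 4, 5 and 6. The T and NK cell mean was 2.12 and -0.63 in the controls and -0.48, -0.16 and -0.53 in the Cre libraries. The myeloid mean was 1.83 and -0.41 in the controls and -0.70, -0.04 and -0.72 in the Cre libraries. Control 2 lay within the range of the Cre libraries for the B and plasma cell and myeloid classes and below it for the T and NK cell class. Cre minus control was -1.04, -1.13 and -1.20 for the 3 classes with all libraries, 0.24, 0.24 and -0.08 without control 1, and -2.32, -2.51 and -2.31 without control 2. With 2 controls, leaving out either moves a difference by the same amount in opposite directions, so this does not single out a control. Without control 2 the control group is 1 library, whose spread is taken from the Cre group, and 10 of the 42 genes and 433 of all genes passed the threshold in limma, all 10 lower in Cre. They were Cd2, Cd3e, Cd3g, Cd8a, Trbc1, Trbc2, Trbv16, a kappa V segment, Cd44 and Cd86. Without control 1, 0 of the 42 passed.

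Most other immune genes in the BAT table were also highest in control 1, as were 70.7% of all its genes. Of 24 genes of T cell identity and signalling 18 were in the BAT table and all 18 had their highest value in control 1, where their mean was 2.06 against -0.53 in control 2. Lck, Zap70 and Lat, which carry the signal of the T cell receptor, had 2.18 to 2.21 there. All 14 NK and cytotoxic genes in the table, of 20, and all 15 macrophage genes, of 20, were likewise highest in control 1, with means of 2.18 and 2.02. None passed the threshold in either direction. Of 10 dendritic cell genes 9 were in the table and 7 were highest in control 1, while Ly6d had -1.87 there and Fscn1 was highest in Cre 5 (1.49). Ltf, the only neutrophil gene in the table, had -1.50 in control 1. The 3 plasma cell genes in the table, of 11, were divided: Jchain, which joins IgA and IgM into polymers, and Fkbp11, a secretory chaperone, had 1.95 and 2.11 in control 1, while the transcription factor gene Irf4 had -1.81 there and 1.49 in Cre 5. The 5 lymph node stroma and vessel genes in the table, of 16, averaged 0.48 in control 1 and 0.75 in Cre 5, and the B cell zone chemokine gene Cxcl13 was not in the table. All 10 proliferation genes in the table averaged 2.13 in control 1 and -0.64 to -0.19 elsewhere. The 4 Y-linked genes averaged 2.21 in control 1 and -0.55 to -0.22 elsewhere. Genes of other tissues stood out in other libraries, with 4 lung epithelium genes averaging 2.20 in Cre 4 and 13 hepatocyte genes averaging 1.88 in Cre 6. The 14 skeletal muscle genes averaged 1.08 and 1.0002 in the controls and -1.89, 0.13 and 0.08 in Cre 4, 5 and 6, so that both controls were above all Cre libraries as for Cd24a. The part of sex, proliferation or other cells in these values was not tested.

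**Figure D3:**
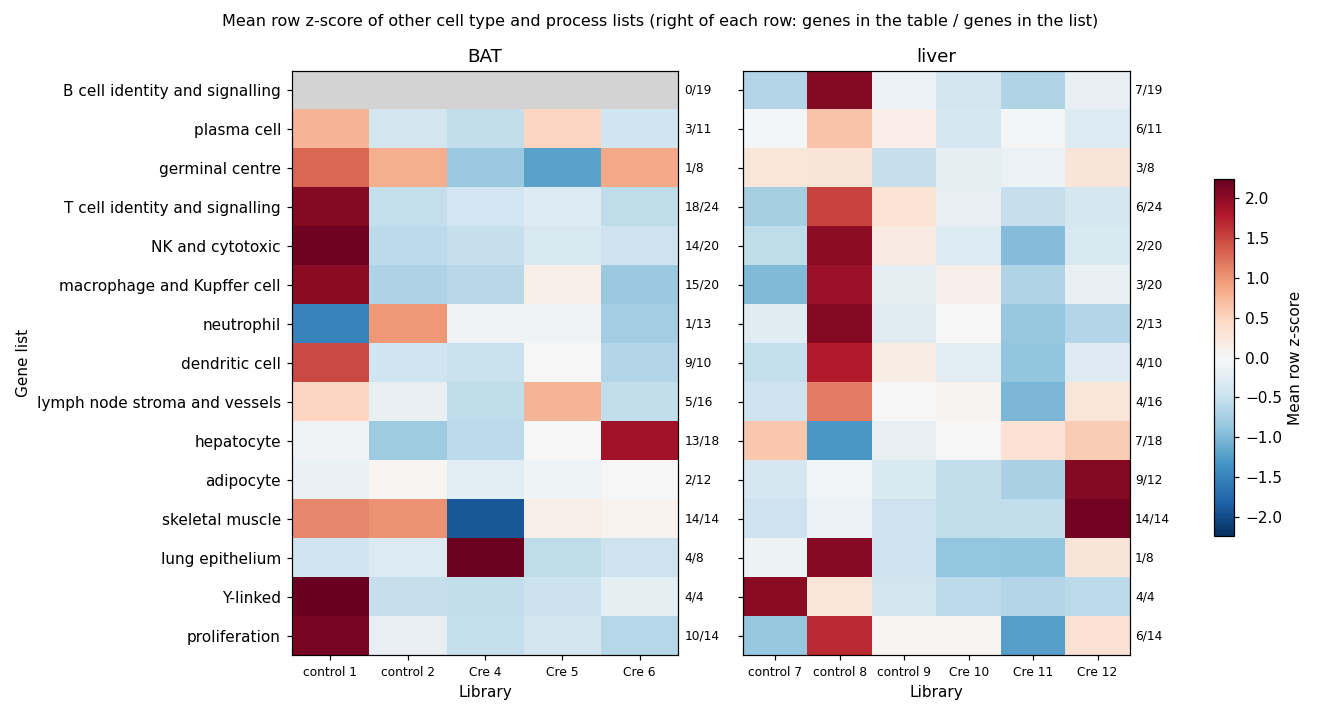
Mean row z-score of other cell type and process gene lists (rows) in each BAT (left) and liver (right) library; grey marks a list with no gene in the table, and the fraction beside each row gives genes in the table over genes in the list. In BAT control 1 the T cell, NK, macrophage, proliferation and Y-linked lists average 2.02 to 2.21, and in liver control 8 the B cell, NK, macrophage, neutrophil lists and the single lung epithelium gene average 1.92 to 2.06 while hepatocyte genes average -1.31.

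In liver the genes were high in control 8. It was the highest of the 6 libraries for 41 of the 44 genes (93.2%) and for all 39 of the leukocyte classes, and 26 of the 44 had 2 or more there. Over all 2500 genes control 8 was the highest for 56.4%, and 706 genes had 2 or more there. Ptprc had -1.004, 1.996 and 0.09 in controls 7, 8 and 9, against 0.12, -0.96 and -0.24 in Cre 10, 11 and 12. The lowest library was another control, number 7, so the groups overlapped. Cd52, a small surface glycoprotein of lymphocytes, had -0.21, 2.21 and -0.33 in the controls and -0.53, -0.66 and -0.49 in the Cre libraries. For Cd52 every control was above every Cre library.

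**Figure D4:**
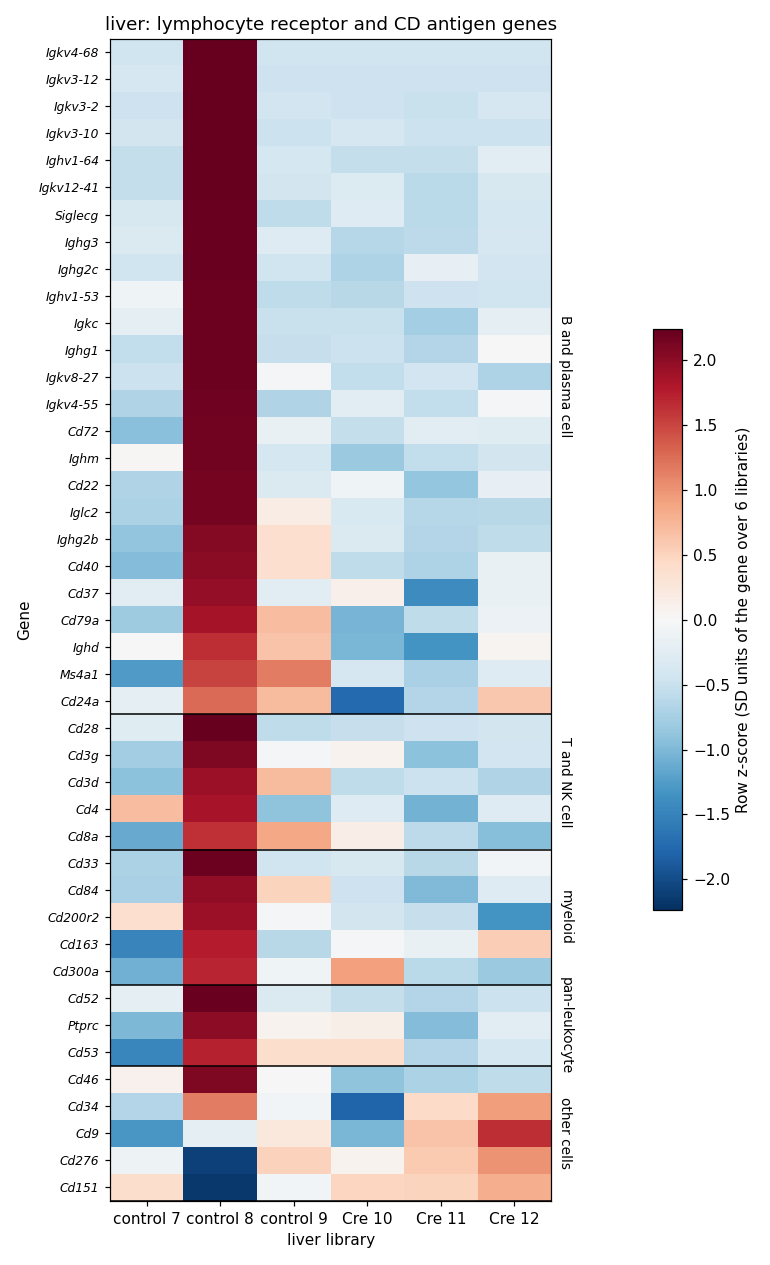
Row z-scores of 43 of the 44 genes (rows, by class) in the 6 liver libraries (columns), with red above and blue below the gene's mean. Control 8 is the darkest red column for 40 of these genes and the darkest blue for Cd151 and Cd276.

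Antibody genes were also high in control 8. The 9 V segments had 2.18 to 2.24 in control 8 and at most -0.03 in any other library. Igkv4-68 had 2.24 in control 8 and the same value, -0.45, in all 5 other libraries, and Igkv3-12 had 2.23 in control 8, -0.37 in control 7 and -0.47 in the other 4. Ties at the lowest value occurred in 5 of the 9 segments. Tied libraries may lie at a floor, and since a z-score carries no level, a value near 2.24 may rest on few reads. How genes were chosen for the table is not stated, and such a segment may be listed only through control 8. The 8 constant regions had 1.66 to 2.22 in control 8. Igkc had -0.20, 2.20 and -0.50 in controls 7, 8 and 9, against -0.50, -0.77 and -0.22 in Cre 10, 11 and 12. Ighg3, the heavy chain of IgG3, had -0.33, 2.22 and -0.29 in the controls and -0.64, -0.58 and -0.38 in the Cre libraries. Ighm had 0.03, 2.16 and -0.40 in the controls and -0.82, -0.56 and -0.42 in the Cre libraries. For Ighg3 and Ighm every control was above every Cre library, though by little in controls 7 or 9.

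The kappa V segments resemble each other, which bears on how far their values can be read as separate genes. The V exons of Igkv3-2, Igkv3-10 and Igkv3-12 are 310 bases long and 87.7% to 90.6% identical in pairs. The first 150 bases of each are shown from the plus strand of GRCm38 (chr6:70698758-70698907, chr6:70572921-70573070 and chr6:70518540-70518689), with capitals where the 3 are not all alike.
Igkv3-2: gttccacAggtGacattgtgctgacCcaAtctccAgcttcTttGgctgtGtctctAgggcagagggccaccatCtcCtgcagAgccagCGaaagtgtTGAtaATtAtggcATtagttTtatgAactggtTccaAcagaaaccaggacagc
Igkv3-10: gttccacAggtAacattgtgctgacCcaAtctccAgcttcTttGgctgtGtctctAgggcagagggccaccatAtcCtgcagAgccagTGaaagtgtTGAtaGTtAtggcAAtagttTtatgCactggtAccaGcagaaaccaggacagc
Igkv3-12: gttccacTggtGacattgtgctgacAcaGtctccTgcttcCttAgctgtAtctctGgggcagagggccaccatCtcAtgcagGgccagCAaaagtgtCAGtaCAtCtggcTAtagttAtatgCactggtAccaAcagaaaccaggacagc
Of the 50-base windows of their transcripts, 21.3%, 45.7% and 58.4% occur in other genes, all of the same family. Among all 23 immunoglobulin and T cell receptor genes, 17 share at least 1 such window with another gene. The segments and constant regions lie in 3 clusters, at 113254830 to 115508031 of chromosome 12 for 9 heavy chain genes, 68270485 to 70726966 of chromosome 6 for 9 kappa genes, and on chromosome 16 for Iglc2.

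Genes of B cell surface proteins were high in control 8, and some of them in control 9. Ms4a1, the CD20 membrane protein, had -1.27, 1.52 and 1.15 in controls 7, 8 and 9, against -0.37, -0.73 and -0.29 in Cre 10, 11 and 12. Cd79a, the signalling partner of membrane immunoglobulin, had -0.79, 1.86 and 0.69 in the controls and -1.05, -0.58 and -0.13 in the Cre libraries. In both genes control 7 lay among or below the Cre libraries. Ighd, the heavy chain of IgD, had 0.01, 1.66 and 0.64 in the controls and -1.03, -1.34 and 0.06 in the Cre libraries, so Cre 12 overlapped control 7. Its difference of -1.54 (standard error 0.64) had the smallest p of the 44 genes in limma, 0.074 unadjusted and 0.62 adjusted, and ranged from -1.95 to -1.09 with 1 library left out. Cd22, an inhibitory receptor of B cells, had -0.68, 2.15 and -0.32 in the controls and -0.87 to -0.09 in the Cre libraries. Siglecg, a related inhibitory receptor, had 2.22 in control 8 and -0.29 or less elsewhere.

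The 5 T and NK cell genes were all highest in control 8, with 1.64 to 2.23. Cd3d had -0.91, 1.91 and 0.72 in controls 7, 8 and 9, against -0.56, -0.48 and -0.68 in Cre 10, 11 and 12. Cd3g had -0.78, 2.09 and -0.05 in the controls and 0.08, -0.91 and -0.43 in the Cre libraries. Control 7 was below or among the Cre libraries for both. The coreceptors ordered the remaining controls in opposite ways. Cd8a had -1.12 in control 7 and 0.87 in control 9, while Cd4 had 0.69 and -0.91. In the Cre libraries Cd8a had 0.16, -0.59 and -0.96 and Cd4 had -0.28, -1.06 and -0.29. Receptor constant regions of T cells were not in the liver table.

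The 5 myeloid genes had 1.71 to 2.19 in control 8. Cd163, a scavenger receptor of resident macrophages, had -1.49, 1.75 and -0.62 in controls 7, 8 and 9, against -0.04, -0.17 and 0.56 in Cre 10, 11 and 12. Of the 39 members in the leukocyte classes, it was the only one with a higher Cre mean. Cd200r2, an activating receptor of the CD200 receptor family, had 0.37, 1.91 and -0.03 in the controls and -0.40, -0.51 and -1.33 in the Cre libraries. Every control was above every Cre library, and the difference of -1.50 (standard error 0.66) was -0.92 without control 8 (limma adjusted p = 0.62 with all libraries). Cd300a had -1.08, 1.71 and -0.10 in the controls and 0.92, -0.61 and -0.84 in the Cre libraries. Cd33, a sialic acid binding receptor, had 2.19 in control 8 and -0.06 or less elsewhere.

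CD antigens of other cells went their own ways in liver. Cd46, a complement regulator whose expression in mice is known mainly from testis, had 0.09, 2.08 and 0.01 in controls 7, 8 and 9, against -0.91, -0.70 and -0.57 in Cre 10, 11 and 12. All controls were above all Cre libraries, and the difference was -1.45, or -0.77 without control 8 (limma adjusted p = 0.62 with all libraries). Cd151, a tetraspanin that binds laminin receptors, had 0.40, -2.16 and -0.06 in the controls and 0.49, 0.51 and 0.82 in the Cre libraries. No other of the 44 genes had every Cre library above every control, and its difference of 1.21 was 0.43 without control 8 (limma adjusted p = 0.62 with all libraries). Cd276 had -0.12, -2.08 and 0.52 in the controls and 0.07, 0.59 and 1.01 in the Cre libraries. Control 8 was thus the lowest library for Cd151 and Cd276. Cd9, another tetraspanin, had -1.30, -0.22 and 0.24 in the controls and -1.02, 0.64 and 1.66 in the Cre libraries, highest in Cre 12. Cd34, a sialomucin of vessel and progenitor cells, had -0.65, 1.14 and -0.06 in the controls and -1.79, 0.43 and 0.93 in the Cre libraries.

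As a comparison of Cre with control, liver gave no call either. In limma's gene-wise model 0 of the 44 genes and 0 of all 2500 (0%) passed, also with moderation. At an unadjusted p under 0.05 there were 0 of the 44 and 144 of all genes (5.76%), 2.52% lower and 3.24% higher in Cre, and with moderation 0 and 117 (4.68%). The Cre mean was lower for 40 of the 44 and for 60.4% of all genes and higher for 4 and 39.6%, with median differences of -0.93 and -0.50. Every Cre library lay below every control for 5 of the 44 (11.4%), namely Cd200r2, Cd46, Cd52, Ighg3 and Ighm, and for 12.3% of all genes. Every Cre library lay above every control for 1 of the 44, Cd151 (2.27%), and for 10.3% of all genes. Without control 8, 26 of the 44 (59.1%) and 44.2% of all genes had a lower Cre mean, with median differences of -0.05 and 0.11, and an unadjusted p under 0.05 was found for 2 (4.55%) and 8.88%. Every Cre library was then below every control for 5 of the 44 (11.4%) and 12.8% of all genes, and above for 3 (6.82%) and 15.9%. The count below was 17 (38.6%) without control 7, where it was 32.2% of all genes. It was 10 (22.7%) against 17% without control 9 and 8 (18.2%) against 17.4% without Cre 12. The count above was 2 (4.55%) against 16.3% without control 9 and 3 (6.82%) against 15.9% without Cre 10.

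Control 8 decided the liver class means. The B and plasma cell mean was -0.50, 2.08 and -0.13 in controls 7, 8 and 9, against -0.56, -0.62 and -0.27 in Cre 10, 11 and 12. The T and NK cell mean was -0.48, 1.94 and 0.01 in the controls and -0.22, -0.70 and -0.55 in the Cre libraries. The myeloid mean was -0.72, 1.91 and -0.14 in the controls and -0.07, -0.58 and -0.39 in the Cre libraries. Control 7 lay within or below the range of the Cre libraries in each class. Cre minus control was -0.96, -0.99 and -0.70 for the 3 classes with all libraries and -0.17, -0.26 and 0.08 without control 8. Without control 7 it was -1.46, -1.47 and -1.23.

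Beside these genes, all 7 of 19 B cell identity and signalling genes in the liver table were highest in control 8, with a mean of 2.05. Control 8 was the highest library for 56.4% of all liver genes. Pax5, the B lineage factor, had 2.13 in control 8 and at most 0.04 elsewhere, and Cxcr5, the receptor that guides B cells into follicles, had 2.05 and at most 0.04. The plasma cell genes were divided: Jchain and Mzb1, the latter a chaperone of antibody secretion, had 2.18 and 2.11 in control 8, while Sdc1 and Xbp1, which hepatocytes also express, had -1.68 and -1.23. Of 24 T cell genes 6 were in the table and 5 were highest in control 8. Clec4f and Marco, markers of liver macrophages, had 1.65 and 1.91 there. The 7 hepatocyte genes averaged -1.31 in control 8 and lay between -0.19 and 0.60 elsewhere. All 6 proliferation genes in the table averaged 1.68 in control 8 and -1.23 to 0.34 elsewhere. Lists of other tissues also stood high in single libraries, with 1 lung epithelium gene at 2.04 in control 8, 9 adipocyte genes averaging 2.06 and 14 skeletal muscle genes 2.16 in Cre 12, and 4 Y-linked genes averaging 2.02 in control 7. None of these list genes passed the threshold in either direction, and the part of cell makeup in the receptor and CD values was not tested.

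The 18 genes in both tables can be set side by side, although each tissue was scaled alone and the tissues were not tested against each other. All 18 were highest in control 1 in BAT, and 17 were highest in control 8 in liver. The exception was Cd276, the lowest of its liver values lying in control 8. Cd24a had Cre minus control differences of -2.18 in BAT and -1.19 in liver, where its groups overlapped with -0.19, 1.27 and 0.71 in the controls and -1.74, -0.66 and 0.61 in the Cre libraries. Cd40, the costimulatory receptor of B cells and other antigen-presenting cells, had 1.72 in BAT control 1 and 2.03 in liver control 8. Among the Cre libraries it ran from -1.50 in Cre 6 to 0.37 in Cre 4 in BAT. In liver it ran from -0.69 in Cre 11 to -0.17 in Cre 12. Ighm ran from -1.47 to 0.80 among the BAT Cre libraries and from -0.82 to -0.42 among those of liver. Its peaks were 1.50 in BAT control 1 and 2.16 in liver control 8. A higher peak in a single library draws the others together, so these ranges do not compare the spread of the Cre libraries between tissues.

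Promoters of the genes were searched on both strands for GGAAGT, a form of the site bound by ETS family factors such as PU.1 and ETS1. RefSeq promoters of GRCm38.p6, covering 250 bases before to 50 bases after a start, were found for 32 of the 68 genes, none of them an immunoglobulin or T cell receptor gene. The motif occurred in 18 of their 36 promoters (50%) and in 23.8% of all 32851 promoters. It was in 4 of 6 promoters of T and NK cell genes, in 5 of 8 of B and plasma cell genes and in 5 of 10 of myeloid genes. For genes shared by most leukocytes it was in 4 of 6, and for genes of other cells in 0 of 6. Some genes had more than 1 promoter, and the 8 of B and plasma cell genes came from 6 genes. Promoters of 4 receptor signalling chains are shown as examples, on the strand of the gene, with the motif or its reverse complement ACTTCC in capitals: Cd3d (chr9:44981536-44981835, plus strand), Cd3e (chr9:45009562-45009861, minus strand), Cd3g (chr9:44980382-44980681, minus strand) and Cd79a (chr7:24897247-24897546, plus strand).
Cd3d: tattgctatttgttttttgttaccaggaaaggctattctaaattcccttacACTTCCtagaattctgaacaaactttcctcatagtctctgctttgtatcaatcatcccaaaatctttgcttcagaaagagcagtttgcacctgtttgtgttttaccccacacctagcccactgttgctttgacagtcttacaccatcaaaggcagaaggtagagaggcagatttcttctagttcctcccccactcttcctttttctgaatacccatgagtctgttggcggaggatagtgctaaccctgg
Cd3e: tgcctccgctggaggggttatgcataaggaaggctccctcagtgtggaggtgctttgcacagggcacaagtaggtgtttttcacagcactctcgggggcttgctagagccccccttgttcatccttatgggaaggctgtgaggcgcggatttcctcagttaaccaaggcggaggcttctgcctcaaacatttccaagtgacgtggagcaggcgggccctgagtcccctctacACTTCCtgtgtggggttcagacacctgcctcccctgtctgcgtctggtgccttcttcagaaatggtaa
Cd3g: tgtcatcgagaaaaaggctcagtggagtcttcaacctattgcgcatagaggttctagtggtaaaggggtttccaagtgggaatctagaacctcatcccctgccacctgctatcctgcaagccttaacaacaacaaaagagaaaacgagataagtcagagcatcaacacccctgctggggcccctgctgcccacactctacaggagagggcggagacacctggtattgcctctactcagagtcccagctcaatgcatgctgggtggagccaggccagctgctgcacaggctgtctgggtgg
Cd79a: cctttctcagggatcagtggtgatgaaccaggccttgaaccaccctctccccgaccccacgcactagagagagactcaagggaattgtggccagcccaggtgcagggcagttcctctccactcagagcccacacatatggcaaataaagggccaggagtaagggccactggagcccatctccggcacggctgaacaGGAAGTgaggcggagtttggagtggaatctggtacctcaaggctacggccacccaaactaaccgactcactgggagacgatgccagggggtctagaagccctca
Cd3d, Cd3e and Cd79a each hold 1 match, and Cd3g has none in this window. The 3 CD3 genes are neighbours, between 44969572 and 45009627 of chromosome 9. A match describes letters in the window and not a bound site, and a link between the motif and the library values was not tested.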

How the data were processed

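Groups of the poly(A) RNA libraries follow their titles. Each value in the deposited tables is a score, and each table has 2500 genes. The values show that the authors' scores are row z-scores over 6 libraries: squares sum to 6 in all 2500 rows of each table within 1e-06, in BAT after minus the row sum is added as 1 further value. Per the submitters' processing notes, DESeq2 1.20.0 and TopHat 1.3.3 were used, in roles not stated, and the builds listed are GRCm38, mm10 and mm9. The choice of the 2500 genes and any log transform are not given in the sources used here, so members in a table may be there for differing between libraries. Strand is not stated, so overlapping genes cannot be told apart.

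Members and gene lists were chosen with earlier results of these data known. Classes of members came from a hand-made table. Cre was compared with control within each tissue by limma's gene-wise linear model without variance moderation (limma 3.58.1, R 4.3.3), two-sided, with Benjamini-Hochberg adjustment over all 2500 genes and a threshold of 0.05. The model was tested on simulated data with equally spread values and large shifts only, so finding no call does not exclude smaller differences. Class means were described without a test. Moderation, leaving out tied genes or 1 library, medians, rescaling and ranks were the alternatives. Defining members, the 3 smallest p-values per direction and members with another highest library were named by rule, and any further member or list gene was named after its values were seen. Genes with values not reported here by name remain in the counts and means. All 68 symbols matched 1 gene of GENCODE mouse release 21 on GRCm38. Windows of 50 bases were compared between its annotated transcripts. Figures used Python 3.11.15, pandas 2.3.3 and matplotlib 3.10.9.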

Additional observations from a re-analysis of the deposited data

How the results depend on the processing

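The number of genes past the threshold stayed at 0 in both tissues with moderation, without tied genes and without any 1 library, except without BAT control 2. With 1 library left out in turn it ranged from 0 to 10 of the 42 BAT genes and from 0 to 433 of all BAT genes, and was 0 throughout in liver. Cre minus control of the class means in BAT ranged from -2.32 to 0.24 for B and plasma cell genes, from -2.51 to 0.24 for T and NK cell genes and from -2.31 to -0.0763 for myeloid genes, the ends coming from the 2 controls. In liver the ranges were -1.46 to -0.17, -1.47 to -0.26 and -1.23 to 0.08. Medians, rescaling and leaving out tied genes kept every class difference within 1.5 times its value, and all stayed negative. Ranks gave -0.48, -0.43 and -1.03 in BAT and -0.75, -0.66 and -0.43 in liver for the B and plasma cell, T and NK cell and myeloid genes, so that 3 of the 6 shrank by more than 1.5 times. The difference of Cd248 ranged from -0.28 to 1.21 and that of Cd274 from -1.23 to 2.02, reversing without Cre 5 and without control 2. The count of BAT genes of the 42 with every Cre library below every control was 5 with all libraries and 5 to 40 with 1 left out (all genes 717 and 778 to 1924), and that of the 44 liver genes 5 and 5 to 17 (all genes 307 and 321 to 805). Without BAT control 2 the adjusted p of Cd86 was 0.046. No paired analysis was possible because the groups compared share no replicate number. Z-scores keep no depth, so precision rests on 2 or 3 libraries a group.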
